A study of Mus musculus with 26 samples.

Results

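The domain of Igf2r and Airn on mouse chromosome 17 was described through 5 genes, Igf2r, Airn, Slc22a2, Slc22a3 and Mas1. They were chosen by symbol and are 5 of the 24409 genes of the expression table. Expression was measured by RNA-seq of total RNA depleted of ribosomal RNA in 3 libraries of wild-type (WT) ES cells and 2 libraries of ES cells with zygotic loss of ZFP57 (KO). All 5 libraries came from male C57BL/6J ES cells, which had been derived from the inner cell mass of embryos collected as morulae and cultured further (the study calls the lines blastocyst-derived), and grown with LIF and the 2i inhibitors of Erk and Gsk3 for at most 15 passages. Binding of ZFP57 was available as 1423 peak positions of the C57BL/6J cells and as a shorter list for hybrid ES cells, neither with a score. The samples include no ZFP57 ChIP-seq of hybrid cells, so presence in the shorter list is not taken as independent binding. The study speaks of lines in the plural and calls its WT ChIP-seq samples biological replicates, but the labels do not tie each RNA-seq library to a line of its own, so p-values measure the spread between these libraries. The C57BL/6J background is inbred, so the values are sums over the maternal and the paternal copy. In bulk RNA, fewer expressing cells and less RNA per cell cannot be told apart.

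Igf2r encodes the cation-independent mannose 6-phosphate receptor, which carries lysosomal enzymes to the lysosome and also binds and clears the growth factor IGF2. In most mouse tissues it is expressed from the maternal chromosome. Airn is a long non-coding RNA expressed from the paternal chromosome. It starts in an intron of Igf2r, within the imprinting control region (ICR) of the domain, which carries DNA methylation on the maternal copy, and runs antisense through the start of Igf2r. Slc22a2 and Slc22a3 encode organic cation transporters that are imprinted in the placenta, and Mas1 encodes a receptor for angiotensin-(1-7). ZFP57 is a zinc finger protein that binds methylated TGCCGC at control regions and recruits the co-repressor KAP1.

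On GRCm38 (mm10), the build of the peak lists, the 5 genes spanned 448179 bp of chromosome 17. From the centromeric side, Slc22a3 lay at chr17:12419972-12507704 on the minus strand and Slc22a2 at chr17:12584189-12628489 on the plus strand. Igf2r lay at chr17:12682406-12769706 on the minus strand. Airn lay at chr17:12741311-12859884 on the plus strand and Mas1 at chr17:12838841-12868150 on the minus strand. Airn and Igf2r shared 28396 bp of their spans, and Airn and Mas1 shared 21044 bp, in both cases without overlap of annotated exons. Within the span of Airn lay 92.9% of the exonic bases of Mas1 but 5.01% of those of Igf2r. Whether fragments were counted by strand is not given in the sources used here, so fragments of Airn and of its antisense partners cannot be told apart where they overlap.

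**Figure D1:**
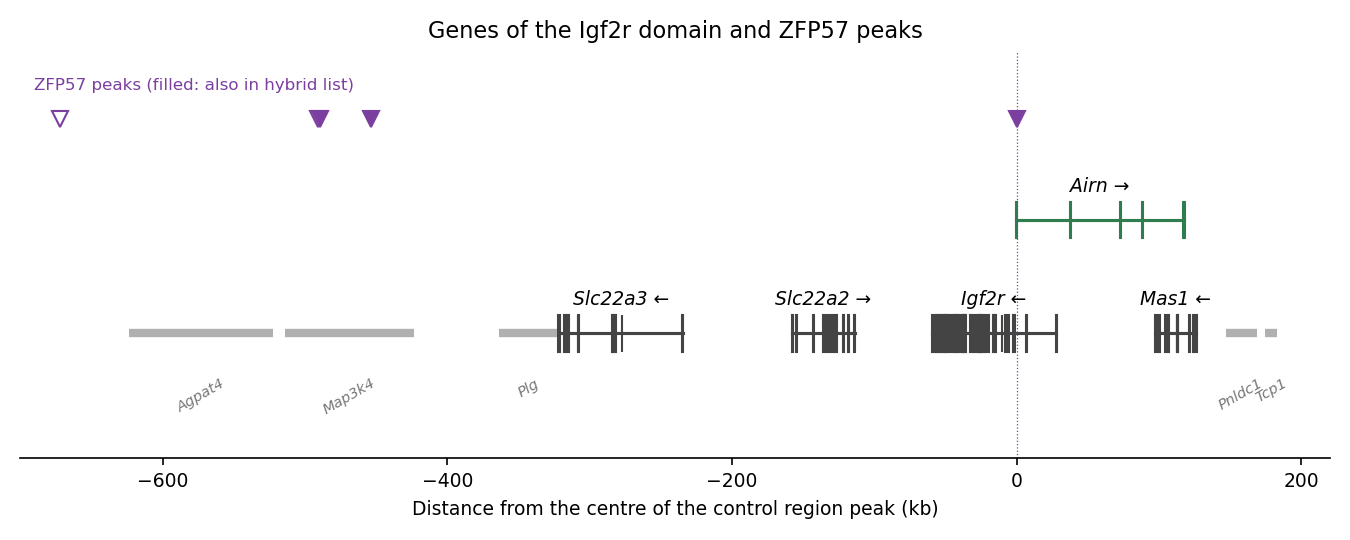
Map of the domain, with distance from the centre of the control region peak in kb on the horizontal axis. Lines are gene spans, boxes are exons, arrows give the direction of transcription, grey bars are neighbouring genes and triangles are ZFP57 peaks, filled where the hybrid list also held them. A single peak lies among the 5 genes, at the start of Airn, and the 4 others lie beyond Slc22a3, with 2 of them drawn on top of each other.

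Within 1 Mb of the outer ends of the domain there were 5 ZFP57 peaks, of which 3 were also in the hybrid list. The source of that list is unclear. The peak of the control region lay at chr17:12741474-12742445 and was 972 bp wide. It started 163 bp inside Airn and lay in an intron of both Airn and Igf2r, for Igf2r in intron 2, and it was also in the hybrid list. It was the only peak of the 5 within 20 kb of any of the 5 genes. Its distance was 27261 bp from the start of Igf2r, and Mas1, Slc22a2 and Slc22a3 were 96396, 112985 and 233770 bp away. Of the other peaks, 3 lay in introns of Map3k4, a kinase gene beyond Slc22a3, and 1 lay outside gene spans. Soft-masked repeat sequence made up 18.7 to 81.1% of these 4 peaks and 14.1% of the control region peak.

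The control region peak held 6 copies of TGCCGC, counted on either strand, and 72 CpG dinucleotides, or 7.41 CpG per 100 bp. Over all 1423 peaks the median was 1 copy of TGCCGC and 11 CpG, and only 8 peaks held more copies and 3 more CpG. Its width exceeded the median of 291 bp, and 33 peaks were wider. Per length it ranked lower, with 6.17 copies per kb against a median of 3.8, and 128 peaks were above it. For CpG per 100 bp the median was 3.49, and 54 peaks were above it. TGCCGC was present in 92.0% of all peaks. The median soft-masked share over all peaks was 72%. Beside the peaks of 11 other transcripts that start in maternally methylated control regions, with 0 to 12 copies and a median of 3, the control region peak was towards the upper end by number. The median width of those peaks was 547 bp. Per kb, the peaks of Nap1l5 (9.22), Snrpn, Nespas, Mest, Kcnq1ot1, Peg13 and Nnat held more copies than the control region peak (6.17). Those of Peg3, Plagl1, Peg10 and Zrsr1 (0) held fewer.

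The first 3 of the 6 copies lie in the 300 bases at chr17:12741725-12742024, shown on the plus strand because they include the closest pair of copies. Capitals mark TGCCGC, or GCGGCA where the motif is on the other strand.
Control region: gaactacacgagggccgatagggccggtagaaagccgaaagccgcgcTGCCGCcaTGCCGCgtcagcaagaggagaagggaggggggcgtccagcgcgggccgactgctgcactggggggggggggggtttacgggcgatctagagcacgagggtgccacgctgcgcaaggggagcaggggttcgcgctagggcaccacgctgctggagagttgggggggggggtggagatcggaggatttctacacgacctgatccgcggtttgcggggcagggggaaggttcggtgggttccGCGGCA

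The 3 copies on the minus strand, at 708, 882 and 1047 bp from the start of Airn, were spaced by 174 and 165 bp. They are shown with 20 bases on each side, read on the minus strand (chr17:12741999-12742044, chr17:12742173-12742218 and chr17:12742338-12742383), because their surroundings repeat.
Copy 3: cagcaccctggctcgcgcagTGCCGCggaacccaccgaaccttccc
Copy 4: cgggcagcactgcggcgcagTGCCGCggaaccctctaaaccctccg
Copy 5: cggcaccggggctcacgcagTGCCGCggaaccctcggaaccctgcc
All 3 contain the same run of 18 bases, cgcagTGCCGCggaaccc, which occurred 3 times on the whole of chromosome 17, all within this peak. Copies 1, 2 and 6, at 461, 469 and 1068 bp, read TGCCGC on the strand of Airn.

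The promoters of the antisense pair differed in base composition. RefSeq gave a promoter, 250 bases before to 50 after the start, for all 5 genes. That of Airn (chr17:12741061-12741360, plus strand) held 3 CpG, and that of Igf2r (chr17:12769657-12769956, minus strand) held 34, against a median of 7 over 32851 promoters. They are shown because the ZFP57 peak starts inside Airn rather than at its promoter. For Igf2r only the 250 bases before the start (chr17:12769707-12769956) are given.
Airn: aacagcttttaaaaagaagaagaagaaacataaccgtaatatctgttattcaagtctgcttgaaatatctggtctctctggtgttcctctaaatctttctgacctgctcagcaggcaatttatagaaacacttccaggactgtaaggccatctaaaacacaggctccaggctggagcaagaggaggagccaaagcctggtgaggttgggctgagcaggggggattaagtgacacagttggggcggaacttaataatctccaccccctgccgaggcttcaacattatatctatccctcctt
Igf2r: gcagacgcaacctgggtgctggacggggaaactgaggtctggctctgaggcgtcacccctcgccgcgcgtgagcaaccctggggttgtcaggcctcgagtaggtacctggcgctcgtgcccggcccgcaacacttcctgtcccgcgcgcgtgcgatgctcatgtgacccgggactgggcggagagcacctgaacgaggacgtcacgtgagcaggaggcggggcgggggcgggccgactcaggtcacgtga
Neither held TGCCGC on either strand, which 11.6% of all promoters did. Of the 5 promoters, that of Slc22a2 held 1 copy, and no ZFP57 peak lay within 20 kb of that gene.

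Expression was given as FPKM, a fragment count scaled for transcript length and library size. The targeted gene Zfp57 had 75.94, 72.34 and 70.55 FPKM in WT and 19.00 and 21.62 FPKM in KO, so its transcript was lower in both KO libraries but not absent. The study disrupted coding exons that include its zinc fingers, and reports by western blot that the mutants lacked ZFP57 protein. Zfp57 lies on the same chromosome, 24133013 bp from the domain. Markers of naive ES cells (7 genes) summed to 641.5 to 660.8 FPKM in WT and 723.9 to 783.4 FPKM in KO. Of these, 4 were called, all higher, Klf4 by 0.74, Tfcp2l1 by 0.60, Esrrb by 0.42 and Pou5f1 by 0.27. Over all tested genes, 18.8% were called higher. Nanog (-0.11), Sox2 (-0.04) and Zfp42 (0.06) were not called, and Nanog was lower in both KO libraries than in all WT libraries. Markers of primitive endoderm summed to 0.49 to 0.82 FPKM and those of fibroblast feeders to 0.16 to 0.36 FPKM over all libraries, with Col3a1 at 0. Trophoblast markers summed to 13.64 to 17.89 FPKM, most of it Tfap2c, which ES cells also express and which fell by 0.44 on the log2 scale in KO. Within that list Eomes rose from 0.51, 0.60 and 0.38 FPKM in WT to 2.13 and 2.40 FPKM in KO (log2 difference 2.00, limma, adjusted p = 0.000801), Cdx2 had 0.73 (adjusted p = 0.117), and Elf5 and Hand1 were at or below 0.06 FPKM. Whether this bears on the values of the domain was not tested. Depth is not given in the sources used here. The steps between low FPKM values of short RNA genes gave 0.0170 to 0.0197 FPKM for 1 fragment on 1 kb, which corresponds to about 50800000 to 58800000 fragments per library.

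Igf2r was the highest of the 5 genes and was lower in KO. It had 10.00, 9.81 and 10.58 FPKM in WT and 6.53 and 7.93 FPKM in KO. Both KO libraries lay below all WT libraries, and the 2 KO libraries differed more from each other than the 3 WT libraries did. Expression averaged 10.1 ± 0.401 FPKM (SD, n = 3) over the WT libraries and 7.23 ± 0.990 FPKM (SD, n = 2) over the KO libraries, a ratio of 0.714. On log2(FPKM + 0.1), the difference was -0.49 with a standard error of 0.089 (limma, adjusted p = 0.00728 over all tested genes). A gene was tested where its mean was at least 0.1 FPKM, and called where the adjusted p was under 0.05. With its exonic length of 8929 bp, these levels correspond to between 3046 and 5153 fragments per library, so counting error is small beside the spread between libraries.

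Airn was expressed at a low level in WT and was lower still in KO. It had 0.26, 0.21 and 0.24 FPKM in WT and 0.06 and 0.11 FPKM in KO. Both KO libraries again lay below all WT libraries, and KO 1, the lower of the KO libraries for Igf2r, was the lower for Airn too. Means were 0.237 ± 0.0252 FPKM (SD, n = 3) and 0.085 ± 0.0354 FPKM (SD, n = 2), a ratio of 0.359. On log2(FPKM + 0.1) the difference was -0.87 with a standard error of 0.218 (limma, adjusted p = 0.0212). This scale understates the change of a gene so low. Assuming the RefSeq exonic length of 2188 bp, the values stand for about 31, 27 and 27 fragments in WT and 7 and 13 in KO, with Poisson 95% intervals of 2.81 to 14.4 and 6.92 to 22.2 that cover counting error only. The call for Airn was lost without WT 1, WT 3 or KO 1, with limma adjusted p-values of 0.0686, 0.0635 and 0.0816 and log2 differences of -0.83, -0.87 and -0.68. It was also lost under quantile normalization (adjusted p = 0.0647) and with the replicate number as a block (adjusted p = 0.116).

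Of the 5 genes, 2 passed the filter on low values and both were called, both lower in KO. The background is high, since 41.1% of the 14612 tested genes were called, 22.3% lower and 18.8% higher in KO, and both KO libraries lay below all WT libraries in 33.1% and above them in 30.3%. Among all tested genes, 16.9% had a lower log2 difference than Igf2r and 7.26% a lower one than Airn.

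**Figure D2:**
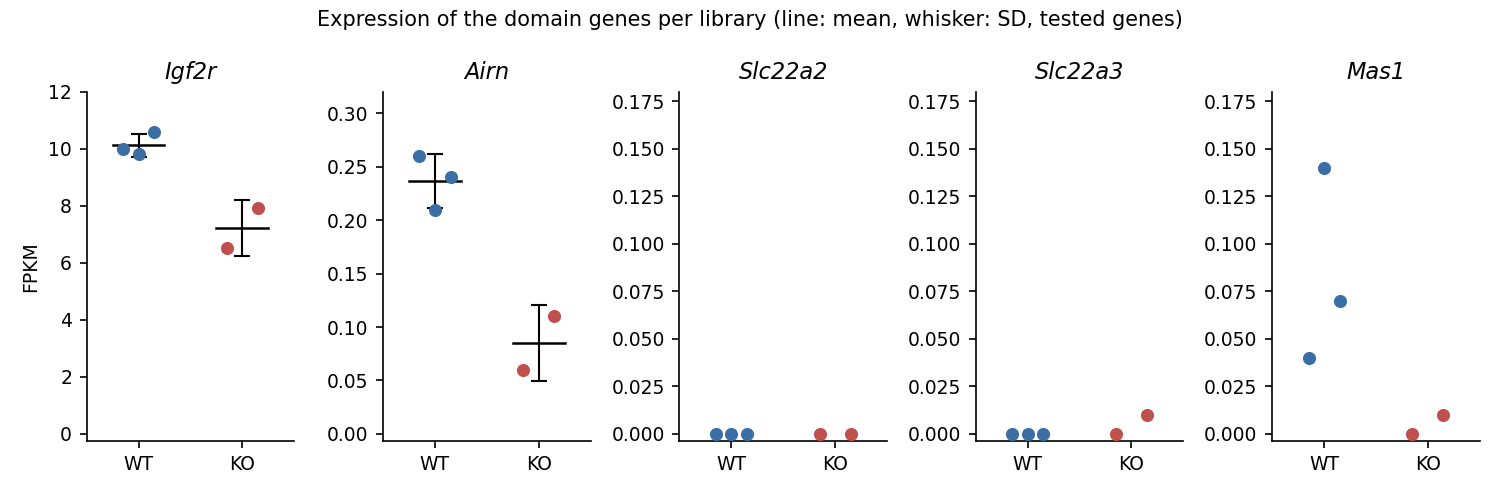
FPKM of each of the 5 genes in the 3 WT (blue) and 2 KO (red) libraries, with a vertical axis from 0 for each gene. Points are libraries, and for the tested genes the line is the mean and the whisker the SD. For Igf2r and Airn both KO points lie below all WT points, and the transporters lie at or near 0.

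The remaining genes were at or near 0. The transporter gene Slc22a2 was listed at 0 in all 5 libraries. Slc22a3 was listed at 0 in 4 libraries and at 0.01 FPKM in KO 2. Neither transporter was thus measurable in either genotype at this depth. Mas1 had 0.04, 0.14 and 0.07 FPKM in WT and 0.00 and 0.01 FPKM in KO. Its KO libraries lay below its WT libraries, but its mean of 0.052 FPKM was under the filter. Without the filter, its log2 difference was -0.77 (limma, adjusted p = 0.0706). Since 92.9% of its exonic bases lie within the span of Airn, its values share the limit on strand given above.

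The balance of the antisense pair was taken within each library, where library scaling has no part. Airn amounted to 2.60, 2.14 and 2.27% of Igf2r in the WT libraries and to 0.919 and 1.39% in the KO libraries. The share was lower in both KO libraries than in all WT libraries. On log2(FPKM + 0.1), the WT ratio was -4.93 ± 0.102 (SD, n = 3) and the KO ratio -5.32 ± 0.082 (SD, n = 2), a difference of -0.39. The two-sided exact permutation test gave p = 0.1, the smallest that the 10 ways of dividing 3 and 2 libraries allow. With a pseudocount of 1 FPKM, above every Airn value, the difference turned to 0.25. With a pseudocount of 0.01 FPKM it was -0.93, in the direction of the shares without a pseudocount.

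With all 5 libraries, none of the other tested genes around the domain was called lower. Of 30 genes of the table within 1 Mb, 17 were tested and 4 were called, all higher in KO (23.5%, against 41.1% of all tested genes). The median log2 difference of the 17 was 0.17, against -0.01 over all tested genes and 0.01 over the 762 tested genes of chromosome 17, of which 37.5% were called. Acat2, which encodes a cytosolic acetyl-CoA acetyltransferase, had 14.03, 14.25 and 14.59 FPKM in WT and 18.71 and 19.36 FPKM in KO. Its log2 difference was 0.41 with a standard error of 0.042 (limma, adjusted p = 0.00105). Sod2, the mitochondrial superoxide dismutase, had 32.98, 34.20 and 32.68 FPKM in WT and 41.87 and 40.52 FPKM in KO (log2 difference 0.31, limma adjusted p = 0.00211). Acat2 and Sod2 were higher in both KO libraries than in all WT libraries. Wtap, a subunit of the RNA methyltransferase complex, rose by 0.17 (adjusted p = 0.0175), and Tcte2 by 0.71 (adjusted p = 0.0446). The call was lost for Wtap without WT 1, WT 3, KO 1 or KO 2 (log2 differences 0.16 to 0.18), and for Tcte2 without any WT library or KO 1 (0.40 to 0.76). Both calls were also lost in the limma fit without a trend (adjusted p = 0.0613 for Wtap and 0.0611 for Tcte2) and with the replicate number as a block (0.133 and 0.13), and that for Tcte2 without the filter (0.0805).

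The nearest expressed genes were not called. Pnldc1, an exonuclease gene 20573 bp beyond Mas1, had a log2 difference of -0.04 (adjusted p = 0.729). For Mrpl18, a mitochondrial ribosomal protein gene, it was 0.03 (adjusted p = 0.523), and for Tcp1, a chaperonin subunit gene, it was -0.04 (adjusted p = 0.509). Map3k4, which held 3 ZFP57 peaks in its introns, had 7.45, 7.65 and 7.79 FPKM in WT and 7.59 and 7.25 FPKM in KO. Its groups overlapped, with a log2 difference of -0.04 (standard error 0.053, limma, adjusted p = 0.58). Of the other tested genes around the domain with at least 1 FPKM in a library, none was called. Their log2 differences were 0.35 for Agpat4, 0.19 for Acat3, 0.22 for Smok4a, 0.17 for 2700054A10Rik, 0.09 for Mllt4 and 0.08 for Snora20. Rnu6, a gene with many near-identical copies, had -1.24, was called lower without KO 2 (-3.44) and is uncertain.

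**Figure D3:**
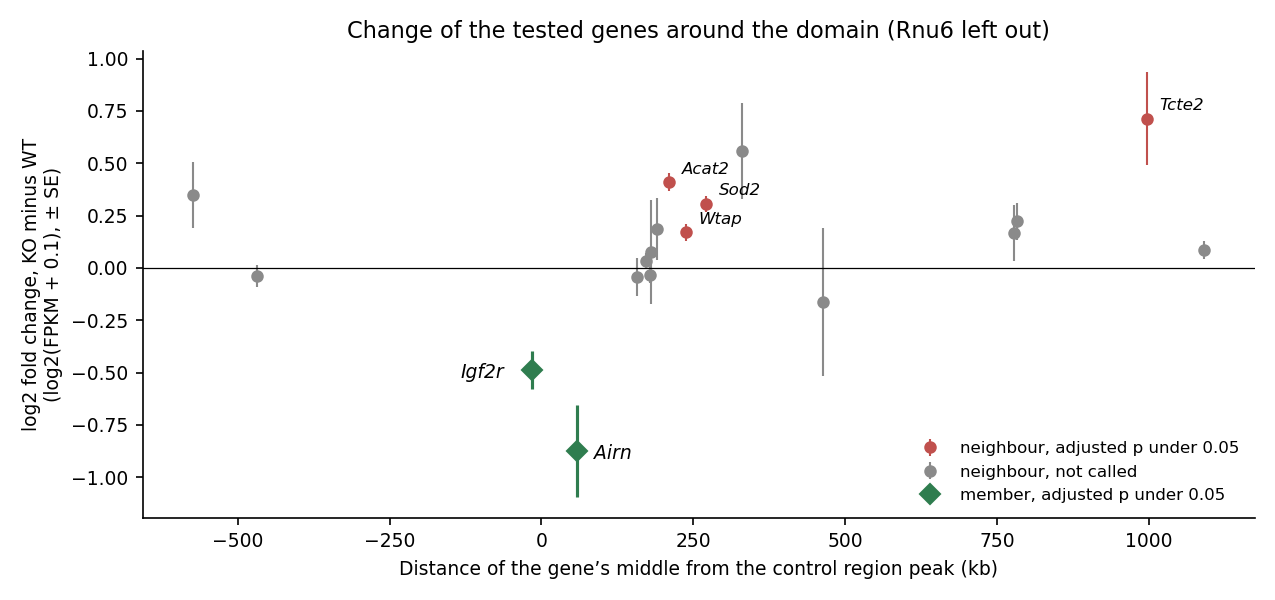
Log2 difference (KO minus WT, on log2(FPKM + 0.1)) of the tested genes around the domain against the distance of each gene's middle from the control region peak in kb. Whiskers are standard errors, green diamonds are Igf2r and Airn, red points are called and grey points are not, and Rnu6 is left out for its wide error. Both green diamonds lie below 0 and all 4 red points lie above it.

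Airn was set beside 11 other transcripts that start in maternally methylated control regions with a ZFP57 peak. Of these, 11 were tested and 8 called, 7 higher and 1 lower in KO, with a median log2 difference of 0.69. Over all tested genes, 41.1% were called, 18.8% higher and 22.3% lower. All share the WT and KO libraries with Airn, so the values are given side by side. Peg10, a gene derived from a retrotransposon, rose from 3.07, 3.37 and 2.55 FPKM in WT to 7.18 and 9.04 FPKM in KO, by 1.41 on the log2 scale (adjusted p = 0.00107). Mest rose by 0.78 (adjusted p = 0.000751), Plagl1 by 0.75 (adjusted p = 0.00269) and Peg3 by 0.69 (adjusted p = 0.00115). Nespas and Snrpn were also called, at 0.70 and 0.56. The lower one, Zrsr1, had -0.32 (adjusted p = 0.0151) and lies on chromosome 11, where 825 of 1224 tested genes were called lower. Its call was lost without KO 1 or KO 2, at -0.33 and -0.32. Airn, at -0.87, had the lowest log2 difference of the 12 on log2(FPKM + 0.1). With a pseudocount of 1 FPKM, Airn was at -0.19 and Zrsr1 was lower, at -0.28. Nap1l5 (0.90), Peg13 (0.34) and Nnat (-0.11) were not called.

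**Figure D4:**
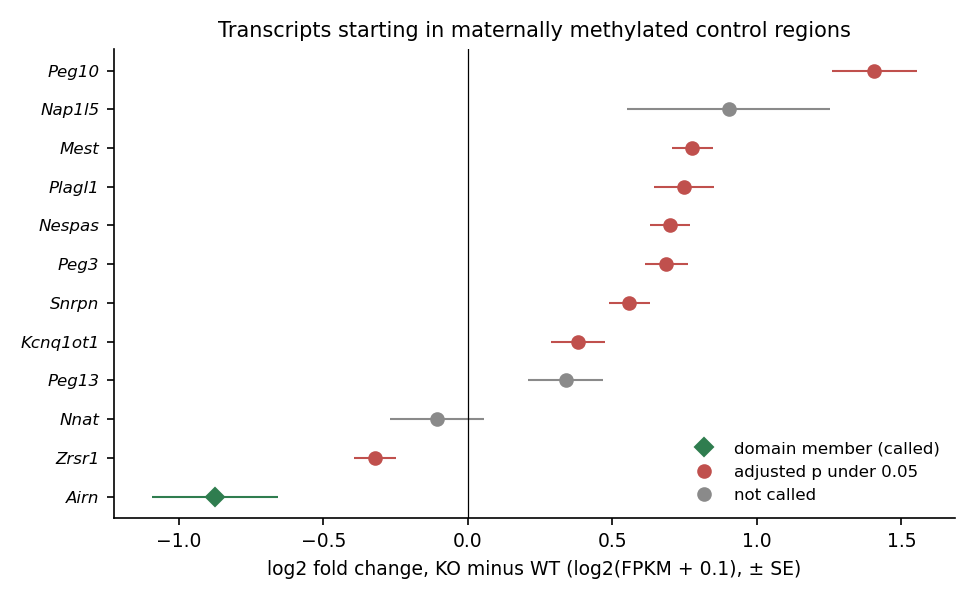
Log2 difference (KO minus WT, on log2(FPKM + 0.1)) of Airn (green diamond) and 11 other transcripts of maternally methylated control regions, with standard errors as whiskers. Red points are called and grey points are not. Airn is lowest, at -0.87, and Peg10 highest, at 1.41.

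The domain of Kcnq1ot1 has the same layout, with a long non-coding RNA that starts in a maternally methylated control region antisense to a gene. The study reports that this control region, unlike the others it measured, kept its DNA methylation in the zygotic KO cells. It also reports that a repressive histone mark was lost there. Kcnq1ot1 had 5.31, 4.68 and 5.14 FPKM in WT and 7.15 and 6.08 FPKM in KO, and rose by 0.38 on the log2 scale (limma, adjusted p = 0.0198). This call was lost without WT 2, WT 3 or KO 1, at 0.33, 0.40 and 0.27. Airn and Kcnq1ot1 thus moved in opposite directions. Whether the methylation kept at the control region of Kcnq1ot1 bears on this was not tested. Within libraries, Airn minus Kcnq1ot1 came to -3.93 ± 0.021 (SD, n = 3) for WT and -5.19 ± 0.440 (SD, n = 2) for KO on log2(FPKM + 0.1). The difference of -1.26 is a description with no test, since the pair was set side by side with the values known. Of 8 genes of that domain 7 were tested, and 3 were called higher and 1 lower, beside 18.8% higher and 22.3% lower over all tested genes. Phlda2, which restrains placental growth, fell by 1.63 (adjusted p = 0.000706), and Cd81 rose by 0.59 and Tssc4 by 0.26. The call for Tssc4 was lost when any 1 library was left out, at 0.20 to 0.32. Cdkn1c (-0.85, adjusted p = 0.0712), Slc22a18 (-0.40) and Ascl2 (0.21) were not called, and Kcnq1 was not tested. For Cdkn1c the value rested on single KO libraries, at -1.34 without KO 2 (limma, adjusted p = 0.0184, called) and -0.36 without KO 1. Ascl2 was at 0.08 without KO 2.

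The other mannose 6-phosphate receptor is encoded by M6pr, which had 44.71, 41.92 and 43.16 FPKM in WT and 51.05 and 57.67 FPKM in KO, with both KO libraries above all WT libraries. It rose by 0.33 (adjusted p = 0.00762), opposite to Igf2r. With the replicate number as a block it was 0.33 as well, with an adjusted p of 0.0551. A list of 41 genes of the mannose 6-phosphate pathway was tested in full. Of these 28 were called, 18 higher and 10 lower, with a median log2 difference of 0.16 against -0.01 over all tested genes, of which 41.1% were called, 18.8% higher and 22.3% lower. Of the 10 lower, 5 lie on chromosome 11. On the other chromosomes, 18 rose and 5 fell in the same fit, with a median of 0.20, and a fit without the genes of chromosome 11 called 18 higher and 4 lower. The number called fell to 18 without KO 2 and to 12 with the block.

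Among the 19 genes of the sorting machinery, 9 were called higher and 5 lower, beside 18.8% and 22.3% of all tested genes. Vps26a, a subunit of the retromer that returns receptors from endosomes, rose by 0.45, and Ap1s1, of the clathrin adaptor AP-1, by 0.40. Nagpa, the enzyme that uncovers the mannose 6-phosphate signal, rose by 0.39. The adaptor Gga3 fell by 0.60 and lies on chromosome 11, and the sorting nexins Snx6 and Snx1 fell by 0.41 and 0.31. Gnptab, which encodes the enzyme that adds the phosphate tag, had -0.08 (limma, adjusted p = 0.451). Among the 22 cargo enzymes, 9 were called higher and 5 lower, 3 of the 5 on chromosome 11, beside the same 18.8% and 22.3%. Tpp1, a lysosomal peptidase, rose by 0.88, Hexa, a hexosaminidase, by 0.84 and Ctsa, a carboxypeptidase, by 0.78. Those with the lowest values, Naglu (-0.74), Sgsh (-0.73) and Gaa (-0.69), all lie on chromosome 11. When 1 library was left out, calls were lost for Naglu (any library), Sgsh (any but WT 2), Nagpa (WT 1, WT 2 or KO 1) and Ap1s1 (WT 2 or KO 2).

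**Figure D5:**
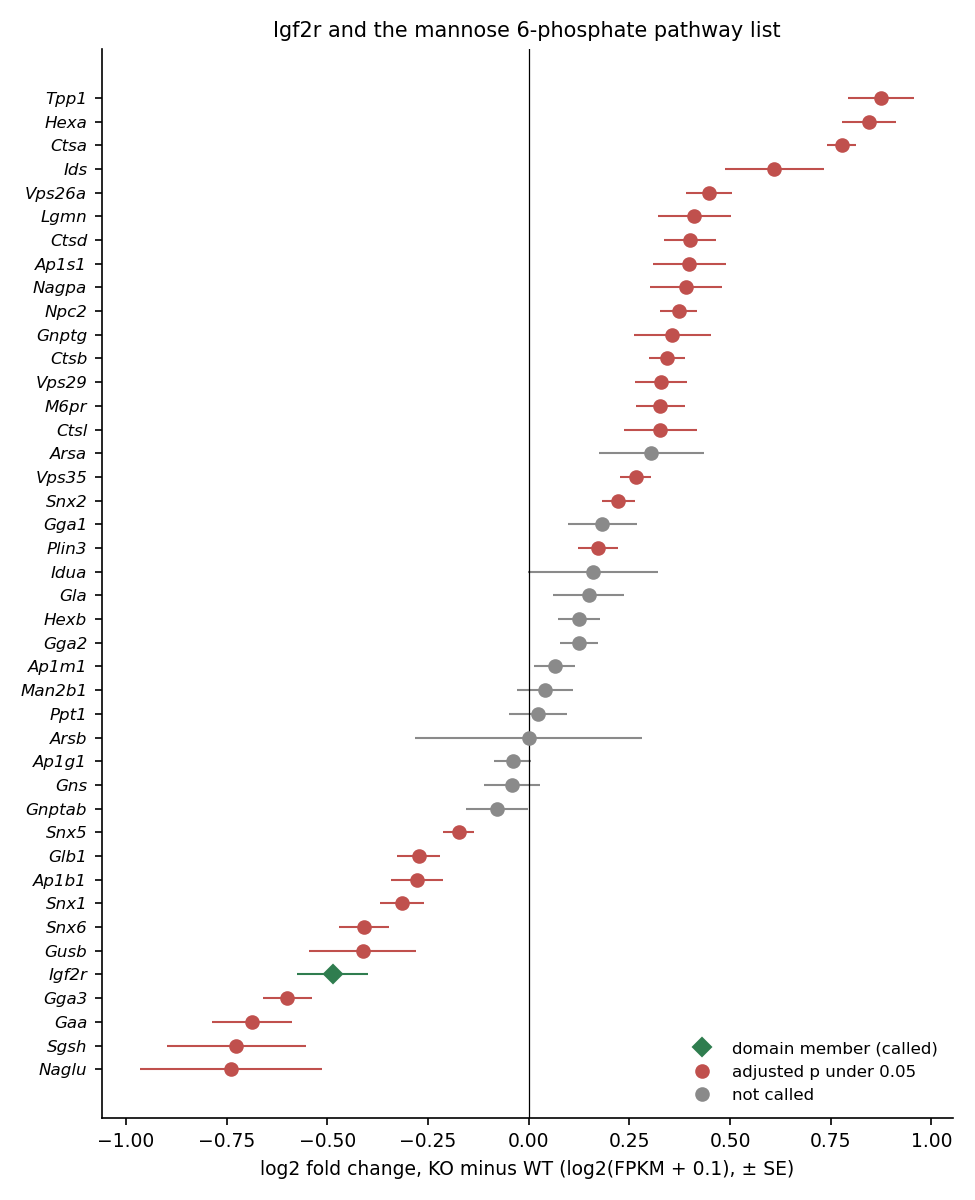
Log2 difference (KO minus WT, on log2(FPKM + 0.1)) of Igf2r (green diamond) and 41 genes of the mannose 6-phosphate pathway, with standard errors as whiskers. Red points are called and grey points are not. Igf2r lies near the lower end at -0.49, and Tpp1 is highest at 0.88.

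The ligand of Igf2r was almost silent. Igf2 had 0.17, 0.12 and 0.08 FPKM in WT and 0.23 and 0.21 FPKM in KO, with a log2 difference of 0.54 (limma, adjusted p = 0.124). Under quantile normalization it was called higher, at 0.79 (limma, adjusted p = 0.04). Of 10 genes of the IGF axis 7 were tested, and 5 were called, all lower in KO, with a median of -0.52, where 22.3% of all tested genes were called lower. The signalling receptor gene Igf1r had 4.30, 4.09 and 4.55 FPKM in WT and 2.93 and 3.01 FPKM in KO. It fell by 0.52 (adjusted p = 0.00308), and the insulin receptor gene Insr fell by 0.49 (adjusted p = 0.0451). The call for Insr was lost without WT 1, WT 3, KO 1 or KO 2, at -0.46, -0.39, -0.50 and -0.48. It was also lost without the filter, under quantile normalization, without a trend and with the block (limma, adjusted p = 0.0767, 0.0642, 0.0603 and 0.158). The IGF-binding protein genes Igfbp5, Igfbp2 and Igfbp4 fell by 1.06, 1.00 and 0.96, and Igfbp4 lies on chromosome 11. Its call was lost without WT 1, KO 1 or KO 2, at -0.96, -1.02 and -0.90. Only 3 of these calls were left without WT 1, without KO 1 or without KO 2.

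Of 18 other Slc22 genes 7 were tested, with Slc22a23 called higher (0.64) and Slc22a21 (-1.60), Slc22a20 (-1.47) and Slc22a5 (-1.21) called lower, where 41.1% of all tested genes were called. Slc22a21 and Slc22a5 lie on chromosome 11. Of 11 genes of the renin-angiotensin system, to which Mas1 belongs, 5 were tested. Called were 3, all higher, beside 18.8% of all tested genes. Atp6ap2, Agtrap and Mme rose by 0.40, 0.40 and 0.33. The calls for Mme, without either KO library, and for Slc22a23, without KO 1, were lost.

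The genes whose values over the 5 libraries were most like those of Igf2r, among genes averaging 1 FPKM or more, were Skiv2l2 (Pearson r = 0.9983), Tmem81 (0.9982) and Spg20 (0.9974). For Airn they were Mafk (0.9993), Mef2d (0.9990) and Slc25a11 (0.9989). With 5 libraries such values are common, and 477 of 10663 genes exceeded 0.95 for Igf2r and 636 of 10664 for Airn.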

How the data were processed

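Gene expression was measured in 3 WT and 2 KO RNA-seq libraries with reads of 150 bp, and ZFP57 binding in ChIP-seq libraries with reads of 100 bp. The authors deposited expression as FPKM, rounded to 2 decimals. Peaks were deposited as positions in mm10 (unit other), without scores. The submitters' processing notes name FastQC 0.11.5, Trim Galore 0.2.7, BWA 0.6.2, Picard, MACS2 2.1.0 and STAR 2.5.2. Counting, its strand setting and the annotation are not given in the sources used here.

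Genes averaging 0.1 FPKM or more entered the test, which was limma 3.58.1 on log2(FPKM + 0.1) in R 4.3.3 (eBayes with trend, two-sided, Benjamini-Hochberg adjustment over 14612 genes, threshold 0.05), after a check on simulated data. Positions, exons, promoters and sequences were taken from RefSeq on GRCm38, with 23190 genes matched by symbol and 1095 by synonym, 111 without a match and 13 with several. Fragment numbers were estimated from FPKM steps, 90 to 93.3% of low values being whole multiples against 6.17 to 6.83% by chance.

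The 5 genes and the lists were chosen with earlier results of these data known. Named by rule were the 5 genes, genes within 1 Mb with at least 1 FPKM in a library or called, and, from each list, the called genes with the 3 highest and 3 lowest differences. With them came Igf2, M6pr, Igf1r and Zfp57, all genes of the Kcnq1ot1 domain and of the control region transcripts, and the 3 genes most like Igf2r and Airn. Gnptab, Insr and the cell type markers were added with their values known. A further gene of the region is not reported here. Alternatives covered the pseudocount, the filter, the scaling, the moderation, chromosome 11, the replicate block, each library and the windows.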

Additional observations from a re-analysis of the deposited data

How the results depend on the processing

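Igf2r was called lower in KO under every alternative run for it, between -0.63 and -0.35 when 1 library was left out. For Airn the difference was negative under all alternatives that gave a value. It was -1.42 with a pseudocount of 0.01 FPKM and -0.19 with 1 FPKM, was no longer called under quantile normalization (-0.59), and ranged from -1.07 to -0.68 when 1 library was left out. The filter of at least 1 FPKM gives no value for Airn. The number of the 5 genes called was 1 with that filter, with quantile normalization and with the block, and 1 to 2 when 1 library was left out. Genes called around the domain numbered 2 to 4 when 1 library was left out, 2 of them without WT 1, WT 3 or KO 1. For the mannose 6-phosphate list this range was 18 to 23. For the IGF axis it was 3 to 5, and 3 were called with a mean of at least 1 FPKM. The ratio of Airn to Igf2r ranged from -0.45 to -0.33 when 1 library was left out, was -0.93 with a pseudocount of 0.01 FPKM and turned to 0.25 with a pseudocount of 1 FPKM. Fits with 1 KO library assume that it varies as the WT libraries do. Signs changed for 4 genes that were not called when 1 library was left out, Pnldc1 (-0.103 to 0.018), Mrpl18 (-0.007 to 0.076), Snora20 (-0.173 to 0.254) and Rnu6 (-3.44 to 0.959). Without KO 2, Rnu6 was called lower (limma, adjusted p = 0.0215), 1 of the 4 genes then called around the domain. Over 57 other named genes, 761 of 833 values kept direction and call, 59 lost the call, 8 gained it and 5 reversed. The cause was not tested. Counts of 7 and 13 fragments limit Airn in KO.

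The labels do not say whether the replicate numbers pair WT with KO libraries. Deviations of same-numbered libraries correlated at -0.068 and -0.036. With 2 KO libraries the deviations from their mean mirror each other, so these values cannot decide whether libraries were paired. With the replicate block, 3012 genes were called in all, 2 around the domain, 12 of the mannose 6-phosphate list and 2 of the IGF axis. Igf2r had -0.46 (limma, adjusted p = 0.0421) and Airn -0.87 in the block.

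Of the 5 peaks, 3 were in the hybrid list and 1 lay within 20 kb of one of the 5 genes.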
